A study of Mus musculus and Rattus norvegicus with 4 samples.

Results

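The dystrophin glycoprotein complex was described here through 9 genes, namely Dmd, Utrn, Dag1, Sgca, Sgcb, Sgcd, Sgce, Sspn and Sntb1, taken from a named list out of 21887 protein-coding mouse genes. The muscle transcription factor MEF2A (myocyte enhancer factor 2A) was mapped by ChIP-exo, in which an exonuclease trims the immunoprecipitated DNA towards the edge of the bound protein. The groups were MEF2A and normal rabbit IgG libraries from C2C12 cells, an established mouse myoblast line kept for 48 h in differentiation medium with 2% horse serum, and the same pair from primary cardiomyocytes of rats aged 1 to 3 days. Each group held 1 library, so all values describe a single library and carry no replicate error. The C2C12 MEF2A list held 2797 peaks, of which 10 were assigned to 6 of the 9 genes.

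The complex links the actin cytoskeleton of a muscle fibre to the basement membrane. Dystrophin binds actin at one end and beta-dystroglycan at the other, alpha-dystroglycan binds laminin outside the cell, the sarcoglycans and sarcospan steady the complex within the membrane, and the syntrophins dock signalling proteins to it. Loss of dystrophin or of alpha-, beta- or delta-sarcoglycan causes muscular dystrophy. Utrophin, the close relative of dystrophin, marks the neuromuscular junction in adult muscle. MEF2 proteins are known activators of many genes of muscle structure.

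Strong MEF2A peaks lay inside the genes for sarcospan, epsilon-sarcoglycan, utrophin and beta-1-syntrophin, weaker ones inside those for dystroglycan and delta-sarcoglycan, and none was assigned to the genes for dystrophin, alpha-sarcoglycan and beta-sarcoglycan. A peak was assigned to the protein-coding gene whose span, the stretch from the lower to the higher annotated coordinate, was nearest, up to a limit of 100 kb. The 6 genes with a peak were 66.7% of the list, against 7.73% of all protein-coding genes. The latter share was 4.49% for spans under 50 kb and 35.6% for spans of 1 Mb or more. The 9 genes were not matched to other genes for span length. The score of a peak is the value the authors' peak caller gave it, higher for stronger peaks, and serves here only to rank peaks within the list. It ran from 50.1 to 3100 over all peaks, with a median of 77.0, and from 54.7 to 804 over the 10 peaks of the complex, with a median of 140.2. The 9 genes were listed with earlier results of the same data known, so these shares are a description and carry no test.

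**Figure D1:**
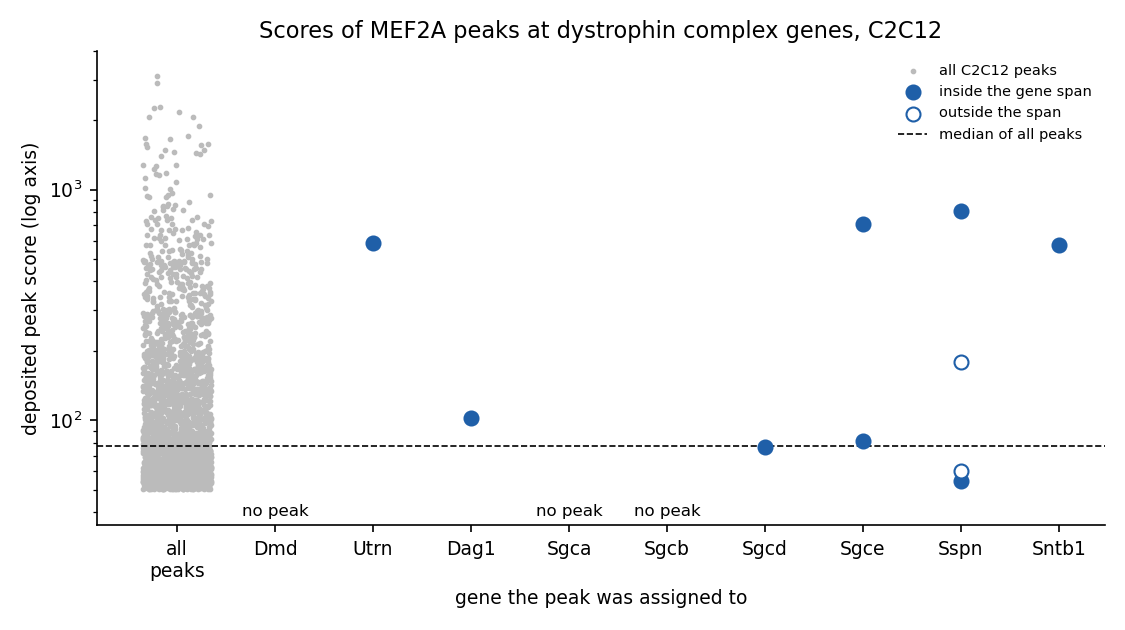
Deposited score of each C2C12 MEF2A peak (vertical log axis) for the 9 genes (horizontal axis), beside all 2797 peaks in grey; filled points lie inside the gene span, open points outside it, and the dashed line is the median of all peaks. Sspn, Sgce, Utrn and Sntb1 each have a peak between 574 and 804, and Dmd, Sgca and Sgcb have none.

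The 9 genes were also set against all genes at higher scores. A limit of 100 left 5 of them with a peak (55.6%, against 3.47% of all protein-coding genes), since the Sgcd peak fell below that score. At 200 or more, Utrn, Sgce, Sspn and Sntb1 were left (44.4%, against 1.53%). The same 4 genes had a peak scoring 500 or more, a level reached by 110 of the 2797 peaks (3.93%) and by 0.457% of protein-coding genes. These 4 peaks, taken for their high score, were 293 to 543 bp wide. The median over all peaks was 144 bp, and 16.9% of peaks were 293 bp or wider. Their width was not set against that of the other peaks scoring 500 or more.

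**Figure D2:**
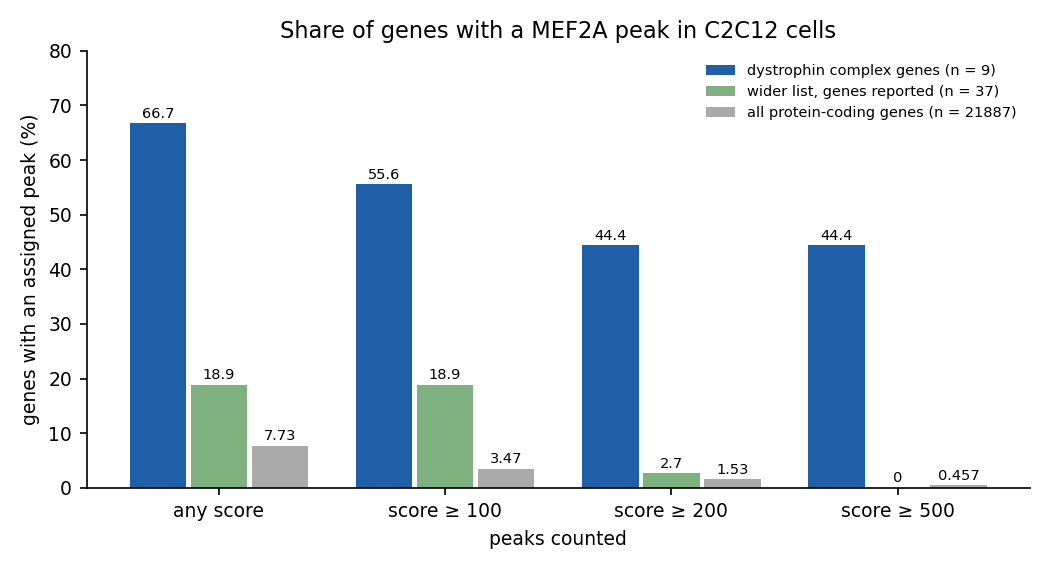
Percentage of genes with an assigned C2C12 peak (vertical axis) among the 9 genes of the complex, the 37 reported partner genes of the wider list and all 21887 protein-coding genes, for 4 limits on the score (horizontal axis); there are no error bars because there is 1 library. The share of the 9 genes goes from 66.7% for any score to 44.4% at 500 or more, while that of all genes goes from 7.73% to 0.457%.

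Dystrophin and utrophin, the large actin-binding members, differed. Dmd (gene ID 13405, chromosome X, 82814664 to 85205050, mm10) spans 2.39 Mb, the longest protein-coding span in the annotation, and contained no peak. The peak nearest to it lay 750.7 kb from its lower-coordinate end, with a score of 53.9, and had no protein-coding gene within 100 kb. Dmd was therefore far outside the assignment limit. Utrn (gene ID 22288, chromosome 10, 12382187 to 12869888) contained 1 peak, at 12821445 to 12821737, with a score of 584 and rank 86 of 2797. Its midpoint lay 48.3 kb from the higher-coordinate end of the span and 40.1 kb downstream of the start site listed for Utrn on the minus strand, which lies inside the span and may not be the true start, as described below. That placed it at 90.1% of the span when counted from its lower coordinate. The next protein-coding gene, Stx11, a syntaxin gene, was 116.5 kb from the peak.

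Longer spans contained a peak more often, and Dmd contained none. Over all protein-coding spans the list held 1.28 peaks per Mb, with a peak inside several spans counted for each. On chromosome X, which held 61 of the 2797 peaks, this density was 0.543 peaks per Mb. Of the 59 genes with a span of 1 Mb or more, 21 (35.6%) contained a peak; among them Sgcd contained 1 and Dmd none. A peak lay inside 1.68% of spans under 50 kb, inside 11.0% of those from 50 to 200 kb and inside 27.8% of those from 200 to 1000 kb. Of the complex, Sspn alone of 3 genes in the shortest class contained a peak, and both genes in each of the middle classes did, Dag1 and Sgce in one and Utrn and Sntb1 in the other.

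**Figure D3:**
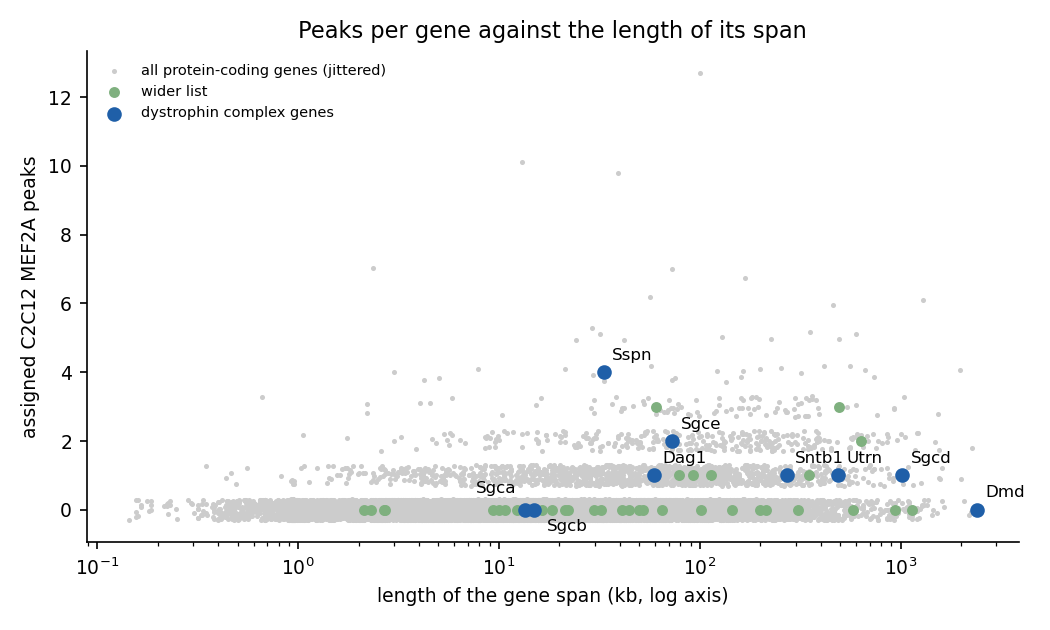
Number of assigned C2C12 peaks (vertical axis) against the length of the gene span in kb (horizontal log axis) for all protein-coding genes (grey, jittered vertically), the 37 reported genes of the wider list (green) and the 9 genes of the complex (blue, named). Sspn has 4 peaks at a span of 33.4 kb, and Dmd, the longest span, has 0.

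No peak was found at either of the 2 start sites listed for Dmd. The first, at 82948870, lies inside the span, whose lower coordinate is 82814664. The sequence before this first site is shown because it holds letters that MEF2 proteins are known to favour. Promoter sequences came from RefSeq for the build GRCm38.p6, the assembly behind mm10, and were searched over the 250 bases before each listed start site. Of the 9 genes 7 were matched, with 10 start sites between them, and Sgce and Sntb1 were not. The search covered both strands for the MEF2 consensus, the CArG box bound by serum response factor, and the E-box CANNTG bound by MyoD family proteins. The Dmd window at chrX:82948620-82948869 (plus strand) is printed with those for Sspn, the gene with the strongest peak, at chr6:145933872-145934121 (plus strand), and for Sgca, at chr11:94976328-94976577 (minus strand), each 5′ to 3′ with matches in capitals.
Dmd: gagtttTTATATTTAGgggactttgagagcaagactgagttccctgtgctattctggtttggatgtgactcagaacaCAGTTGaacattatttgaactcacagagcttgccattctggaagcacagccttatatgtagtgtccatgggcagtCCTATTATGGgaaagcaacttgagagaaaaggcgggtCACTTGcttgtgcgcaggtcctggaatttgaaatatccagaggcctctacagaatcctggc
Sspn: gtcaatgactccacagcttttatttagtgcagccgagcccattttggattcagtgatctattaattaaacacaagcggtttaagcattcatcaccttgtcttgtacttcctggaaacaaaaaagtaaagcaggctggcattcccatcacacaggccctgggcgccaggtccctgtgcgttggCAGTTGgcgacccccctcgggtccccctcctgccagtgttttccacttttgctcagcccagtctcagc
Sgca: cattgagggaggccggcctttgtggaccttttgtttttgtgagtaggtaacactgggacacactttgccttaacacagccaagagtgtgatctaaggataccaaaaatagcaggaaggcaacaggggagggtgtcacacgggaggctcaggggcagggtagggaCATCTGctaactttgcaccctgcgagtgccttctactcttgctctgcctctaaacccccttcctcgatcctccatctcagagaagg
In the Dmd window the capitals are, from the left, a MEF2 consensus match starting 244 bases before the start site, an E-box at 173, a CArG box at 98 and an E-box at 61. In the Sspn and Sgca windows the capitals mark 1 E-box each, at 68 and 86 bases before the start site.

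The printed Dmd window was the single one of the 10 with a MEF2 consensus or CArG box match. The second Dmd window, at chrX:85048045-85048294, held neither of them and no E-box. Over the 21263 windows of protein-coding genes, 2.61% held the MEF2 consensus, 1.39% the CArG box and 62.8% an E-box, and 10 windows (0.047%) held both of the former. E-boxes were found in 7 of the 10 windows of the complex. The 2 Dag1 windows overlap and share the same E-box, which is counted for each. The Utrn window and the first of the 2 Sspn windows end in AG after a pyrimidine-rich stretch, as an intron does before an exon, so the start sites listed there may not be true starts. Without these, 6 of 8 windows held an E-box. None of the 10 windows overlapped a peak, as was the case for all but 70 of the 21263 full 300-base windows (0.329% overlapped one). The peak nearest to the printed Dmd window was 884.7 kb away, and that nearest to the second was 1579.7 kb away. A match of letters does not show binding, and the sequence under the peaks themselves was not analysed here.

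Dystroglycan, whose precursor is cut into the laminin-binding alpha and the membrane-spanning beta subunit, had a peak of middling strength. Dag1 (gene ID 13138, chromosome 9, 108204861 to 108263977) contained 1 peak at 108220466 to 108220670, with a score of 102 and rank 1000. It lay 43.2 kb downstream of the nearer of the start sites listed for Dag1, in the part of the span towards the 3′ end. The next protein-coding gene was Bsn, a presynaptic scaffold gene, 30.0 kb from the peak. A second peak, of score 56.4, lay 42.1 kb beyond the higher-coordinate end of Dag1 but inside the overlapping spans of Tcta and Rhoa, and was assigned to those.

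The sarcoglycans were split. Of the 4 sarcoglycan genes among the 9, Sgce and Sgcd had peaks and Sgca and Sgcb did not, against 7.73% of all protein-coding genes with one. Sgce and Sgcd span 72.9 and 1018.4 kb, in length classes in which 15.2% and 35.6% of all genes had an assigned peak. Sgca and Sgcb span 13.6 and 15.0 kb, in a class with 4.49%. Whether span length accounts for the split was not tested. Sgce (gene ID 20392, chromosome 6, 4674350 to 4747204) encodes epsilon-sarcoglycan, a homologue of alpha-sarcoglycan that is expressed beyond muscle, and contained 2 peaks. The stronger, at 4722217 to 4722718, was 502 bp wide with a score of 709 and rank 60. The weaker, at 4709206 to 4709336, scored 81.4 (rank 1304), and 12880 bp separated the pair. Their midpoints were at 66.0% and 47.9% of the span when counted from its lower coordinate. The stronger was 24.7 kb from the higher-coordinate end of the span, and the weaker 34.9 kb from the lower-coordinate end.

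Sgce neighbours Peg10, and both are imprinted genes expressed from the paternal copy. The peak of score 709 was 24.6 kb from Peg10. A further peak at 4762442 to 4762564, with a score of 107, was 15.2 kb from Sgce and was assigned to Peg10. The first peak beyond the 100 kb limit was 143.3 kb from Sgce, with a score of 75.8, and belonged to Col1a2.

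Sgcd (gene ID 24052, chromosome 11, 46971077 to 47989451) encodes delta-sarcoglycan, part of the core of the muscle sarcoglycan complex. Its 1 peak, at 47139339 to 47139451, scored 76.7, close to the median of all peaks, with rank 1402. It lay 239.9 kb downstream of the start site listed for Sgcd on the minus strand. That site, at 47379325, lies well inside the span, so it may not be the first start of the gene. The peak was more than 100 kb from both ends of the span, 168.3 kb from the lower and 850.1 kb from the higher. It was the weakest top peak among the 6 genes with a peak.

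Sgca (gene ID 20391, chromosome 11, 94962777 to 94976327) encodes alpha-sarcoglycan, which is specific to striated muscle. Its nearest peak, of score 54.3, lay 25.5 kb away inside Col1a1, a collagen gene, and was assigned to that gene. Sgcb (gene ID 24051, chromosome 5, 73632749 to 73647737), the gene for beta-sarcoglycan, had no peak within 613.4 kb. Both spans are short, at 13.6 and 15.0 kb, in the length class in which 1.68% of genes contain a peak. Sgcz, the gene for zeta-sarcoglycan, had no assigned peak either.

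**Figure D4:**
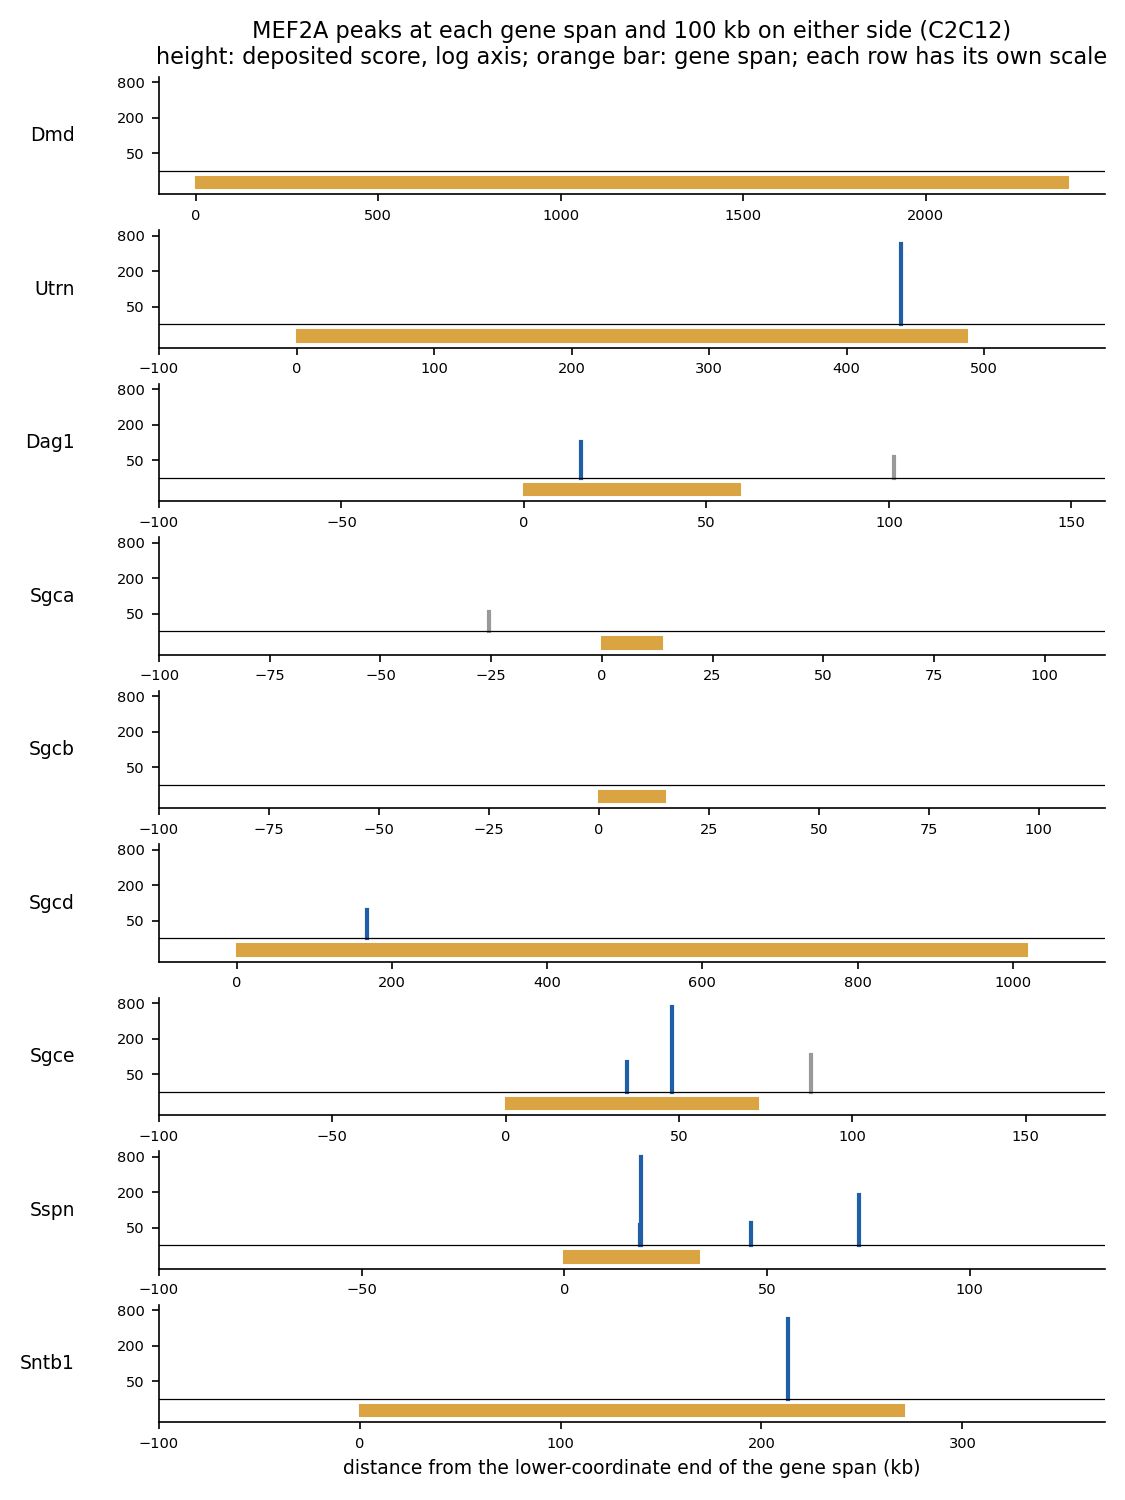
C2C12 MEF2A peaks along each of the 9 genes, with distance in kb from the lower end of each span (horizontal axis, scaled per gene) and deposited score as height (log axis). The orange bar is the gene span, blue lines are peaks assigned to the gene and grey lines are peaks within 100 kb assigned to another gene. Sspn has 4 blue lines, 2 of them beyond its span and 2 so close that they merge in the drawing.

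Sarcospan, a membrane protein with tetraspanin-like topology that binds the sarcoglycans, had the strongest peak of the complex and 4 assigned peaks. Sspn (gene ID 16651, chromosome 6, 145931873 to 145965225) held 2 of them inside its span and 2 beyond it, over 54.2 kb in all. The strongest, at 145950679 to 145951140, was 462 bp wide with a score of 804 and rank 48, and lay 16.8 kb downstream of the nearer listed start site. A weak peak of score 54.7, near the lowest score in the list, stood 67 bp before it. The other 2 lay beyond the span, at 12.6 kb with a score of 60.3 and at 39.2 kb with a score of 178. The last of these was 103.6 kb from Itpr2, the next protein-coding gene on that side. Both of these outer peaks lay inside Gm32838, annotated as a long noncoding RNA gene. With spans of all gene types, or with a limit of 10 kb, the peaks of the complex numbered 8 in place of 10 and Sspn had 2, as many as Sgce. Genes with 4 or more peaks numbered 40, or 0.183% of protein-coding genes. Counting peaks less than 1 kb apart as 1 region joined the strong Sspn peak with its weak neighbour and left 9 regions for the complex.

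The syntrophins are adaptors that bind dystrophin and dystrobrevin and carry signalling proteins through a PDZ domain. Sntb1 (gene ID 20649, chromosome 15, 55636388 to 55907302), the gene for beta-1-syntrophin, contained 1 peak at 55849547 to 55850089. It was the widest of the complex, at 543 bp, with a score of 574 and rank 92. The peak stood at 78.8% of the span by the same count, and the next protein-coding gene, Mtbp, was 223.1 kb away. Just outside the assignment limit, 136.0 kb from Sntb1, lay a peak of score 374 with no protein-coding gene within 100 kb. No other gene of the complex had a first unassigned or foreign peak beyond 100 kb as near as this, the next being that at 143.3 kb from Sgce.

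Of the 10 peaks, 8 overlapped the gene they were assigned to, against 57.1% of all assigned peaks inside a protein-coding span. All 6 genes with a peak had one inside, which is 66.7% of the 9, against 4.57% of all protein-coding genes. Over all protein-coding genes, 1691 had an assigned peak and 1000 had one inside. With the limit set to 10 kb in place of 100 kb the same 6 genes had a peak, against 5.75% of all protein-coding genes. Counting any peak within 100 kb of a span, also one nearer to another gene, Sgca joined them, for 7 of the 9 genes against 22.0% of all protein-coding genes. None of the 10 overlapped a window of the promoter table, and the closest to a start site of its own gene was 16.4 kb downstream, among the 7 peaks of Utrn, Dag1, Sgcd and Sspn for which a start site was listed. The gene table gives no exons, so exons, introns and untranslated regions were not distinguished.

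Partners of the complex were taken from a wider list, of which 37 genes are reported here, comprising further sarcoglycans and syntrophins, dystrobrevins, laminins and other dystroglycan ligands, cytoskeletal linkers, signalling partners and the enzymes that glycosylate dystroglycan. Of these 37 genes, 7 (18.9%) had a peak, 7.73% of all protein-coding genes being the background. The 7 genes had spans from 60.4 kb (Plec) to 635.9 kb (Lama2), and longer spans were assigned peaks more often. Of all protein-coding genes, 15.2% of those with spans of 50 to 200 kb had an assigned peak. For spans of 200 to 1000 kb the share was 32.9%. All 7 had a peak of 100 or more, and their highest scores ran from 106 to 238. At 100 or more, 18.9% of the 37 had a peak, against 3.47% of all protein-coding genes. Plec alone had one of 200 or more (2.7% of the 37, against 1.53% of all protein-coding genes). The share of 18.9% and the counts by role below cover the reported genes only.

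Syntrophins and dystrobrevins bind dystrophin directly. Sntb2, the gene for beta-2-syntrophin, contained a peak of score 120, and the gamma forms Sntg1 and Sntg2 had none. Dtna, the gene for alpha-dystrobrevin, contained a peak of score 106, and Dtnb, the gene for the beta form, had none. Nos1, which encodes the neuronal nitric oxide synthase that syntrophin holds at the sarcolemma, contained a peak of score 134, and Cav3, the muscle caveolin gene, had none.

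Among 9 genes for extracellular ligands, 2 had peaks, Lama2 and Lamc1, and 7.73% of all protein-coding genes did. Lama2, the alpha-2 chain of the muscle laminin mutated in congenital muscular dystrophy, contained 2, with scores of 157 and 67.8. Lamc1, the gamma-1 chain that pairs with it, contained 1 of score 122. Among 6 further cytoskeletal linkers, 2 had peaks, Plec and Ank3, against the same 7.73%. Plec, encoding plectin, which ties intermediate filaments to the complex, contained 3, with scores of 238, 74.1 and 113, the first 2 of them 10 bp apart. Ank3, encoding ankyrin-G, which binds dystrophin, had 3, the strongest scoring 132 at 29.8 kb from its span.

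None of the 14 reported genes for the glycosylation of dystroglycan, among them Pomt1, Pomt2 and Pomgnt1, had an assigned peak, against 7.73% of all protein-coding genes and 4.49% of those with a span under 50 kb, so a count of 0 is close to the background. These enzymes build the sugar chain through which alpha-dystroglycan binds laminin.

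The rat cardiomyocyte MEF2A list held 1868 peaks. Rat peaks were not assigned to genes, because no annotation of rn5 was used here, so whether the 9 genes had peaks in cardiomyocytes was not analysed here.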

How the data were processed

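Libraries were made by ChIP-exo from sonicated nuclei with gel selection of 120 to 160 bp, per the labels' protocols. The submitters' processing notes list, without settings, MACS 1.4.2, BWA 0.5.9, CASAVA 1.7.0, SAMtools and Picard, and the builds mm10 and rn5. The authors deposited one peak list per MEF2A library, not pooled, with a position and a score for each peak. Read depth, summits and the use of IgG as control are not given in the sources used here, so no counting interval was computed, and weaker sites than those listed are unknown. The IgG libraries were not analysed here.

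Starts were read as counting from 0 and printed counting from 1. Gene spans are those of RefSeq on GRCm38.p6, and a peak within several spans was given to each. Distances to start sites run from the peak's midpoint to the RefSeq promoter table. Motif matches on both strands at the same place count once. Members and lists were chosen with earlier results of these data known. All 9 genes, the genes of the wider list with a peak and neighbours of the peaks are named, and some genes of the wider list are not reported here. In a check on 400 simulated peaks planted in or near known genes, 400 were assigned to that gene or to a nearer one. Alternatives were higher scores, merged peaks, other distances, all gene types and nearest gene end. Python 3.11.15, numpy 2.4.6, pandas 2.3.3 and matplotlib 3.10.9 were used.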

Additional observations from a re-analysis of the deposited data

How the results depend on the processing

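The count of 6 genes of the complex with a peak stayed between 4 and 7 over 8 alternatives, and Utrn, Sgce, Sspn and Sntb1 had a peak in all 8. Each of these 4 has a peak of 500 or more inside its span, which the score and distance limits keep by construction. The 10 peaks became 6 at a score of 100 or more and 4 at 200 or more, since fewer peaks enter by construction. The 7 genes of the wider list with a peak became 1 at 200 or more (Plec). That is 2.7% of the 37, against 1.53% of all protein-coding genes. Assigning each peak to the nearest end of a span removed Sgcd, Dtna and Lama2. Any peak within 100 kb of a span, also one nearer to another gene, was counted as an alternative chosen after seeing the data. It added Sgca, for 7 of the 9 genes, and gave 12 of the 37 wider genes (32.4%), against 22.0% of all protein-coding genes. A limit of 10 kb in place of 100 kb kept the same 6 and 7 genes. The rat alternatives were not run, as no rn5 annotation was used. With 1 library and unknown depth, whether the weak peaks recur is unknown. No paired analysis was possible because there is 1 library in each group.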

Other observations

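The genes and peaks in this part were chosen after their values were seen. Apart from the outer Sspn peaks, the other 8 peaks of the complex lay inside no noncoding gene or pseudogene.

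Of the 14 reported glycosylation genes, 4 (28.6%) had a peak of another gene within 100 kb, against 22.0% of all protein-coding genes with any peak at that distance. B4gat1, which encodes a glucuronyltransferase of the dystroglycan sugar chain, was 45.5 kb from the second strongest peak of the whole list (score 2912), which was assigned to Npas4. Beyond that limit, Pomgnt1 was 141.0 kb from a peak of score 765 (rank 49) assigned to Pik3r3. Dpm2 was 14.6 kb from a peak of score 83.9 assigned to St6galnac4. Sgcz, whose span is 1.14 Mb, contained no peak, and its nearest, 555.3 kb away, was a peak of score 1020 (rank 31) assigned to Dlc1.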
